A study of Drosophila melanogaster with 2 samples.

Results

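The genes described here are 9 developmental regulators of Drosophila melanogaster, of 13968 protein-coding genes and 18277 genes of all kinds in the annotation. They are the gap gene hb, the selector genes so, Dll and dac, and the Hox genes Scr, Antp, Ubx, abd-A and Abd-B. They were read in chromatin immunoprecipitation with sequencing of Kmg, the product of CG5204 (kmg). All libraries came from 1 group of 2 biological replicates: whole adult males, age unknown, of a transgenic line that stably makes CG5204 with eGFP fused at its C terminus, precipitated through the GFP tag. The control libraries were not analysed here, and the labels give neither the promoter that drives the transgene nor how many flies entered a replicate. The flies were not dissected, so each peak is an average over all tissues of the male, and few cells with a strongly occupied site cannot be told apart from many cells with a weakly occupied one. The members were chosen on the measured peaks: hb, so, Dll and dac were named because they have a peak at the promoter, and the Hox genes were set beside them. The contrast between these 4 genes and the 5 Hox genes is therefore a description with no test.

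Selector genes encode transcription factors that commit a group of cells to an organ or a body region. Hox genes do this for the segments along the body axis, and they lie in the Antennapedia and bithorax complexes. Their regulatory sequence is spread over long introns and over the spaces between genes. In cells where they are off, Polycomb group proteins keep them silent, and trithorax group proteins keep them active where they are on. Kmg is a zinc finger protein studied in the male germline, where it works with the remodeller Mi-2 to hold down genes that belong to other cell types.

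The sequence under the summits is shown for the members on which the results turn: the strongest peak of all 9 genes (hb), the promoter peak closest to the edge of the promoter window (dac), and the single peak of a Hox gene that passed the irreproducible discovery rate (IDR), in Antp. Each run is 201 bases of the Release 6 reference (dm6), 100 on each side of the summit, 5′ to 3′ on the minus strand, which is the strand of all 3 genes. None overlaps an annotated exon of its gene. Capitals mark the words that were found of 8 searched on both strands: GAGAG (GAGA factor), GCCAT (the core of a Pho site), TGATNNAT (an Exd and Hox composite), CAGGTA (Zelda), TATCGATA (the DNA replication-related element), CGATA (BEAF-32, which also lies within TATCGATA), CATCNCTA (part of a core promoter motif) and GTGTGACC (M1BP, read on the reverse strand).
hb, chr3R:8694233-8694433: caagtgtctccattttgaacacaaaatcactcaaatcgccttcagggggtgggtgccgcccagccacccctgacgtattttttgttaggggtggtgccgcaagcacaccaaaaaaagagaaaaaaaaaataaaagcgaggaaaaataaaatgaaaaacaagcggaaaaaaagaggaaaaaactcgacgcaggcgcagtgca
dac, chr2L:16486370-16486570: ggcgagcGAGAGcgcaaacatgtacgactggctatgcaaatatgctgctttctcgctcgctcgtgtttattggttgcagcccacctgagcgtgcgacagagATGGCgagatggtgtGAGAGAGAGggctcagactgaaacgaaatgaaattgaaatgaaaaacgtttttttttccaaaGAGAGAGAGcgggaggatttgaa
Antp, chr3R:6912390-6912590: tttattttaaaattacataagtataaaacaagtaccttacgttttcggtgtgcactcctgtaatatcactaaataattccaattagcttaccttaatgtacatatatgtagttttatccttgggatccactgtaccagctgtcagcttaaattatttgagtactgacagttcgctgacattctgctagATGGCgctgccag

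The hb window held 0 of the 8 words. The dac window held GAGAG at 7 overlapping positions and GCCAT at 1. As many GAGAG sites were found in 16 of the 2868 windows of the same length at all IDR summits (0.558%), and at least 1 GAGAG in 22.1% of them. The Antp window held GCCAT at 1 position, and 27.2% of all IDR windows held it at least at 1. Of the windows not shown, that of Dll held GAGAG at 1 position and that of so held none of the words. GAGAG and GCCAT are therefore the words that occurred at the IDR summits of the 9 genes. In the pooled list GAGAG was found in 20.5% of windows and GCCAT in 33.7%. The remaining words were found in 14.5% (TGATNNAT), 3.28% (CAGGTA), 3.14% (TATCGATA), 28.5% (CGATA), 3.97% (CATCNCTA) and 1.36% (GTGTGACC) of the IDR windows. The members differed widely in base composition. The window of Dll was 60.7% G and C, above 99.7% of IDR windows, those of dac, hb and Antp were 48.3%, 44.3% and 35.3%, and that of so was 34.8%, against a median of 34.8% over all IDR windows (quartiles 30.8 and 39.8).

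Regions were read in 4 lists. The IDR list holds 2868 regions, and these were the 2868 of highest signal in the list of the pooled replicates. The pooled list and the list of each replicate hold 30000 regions each, background included. Signal is the value the authors deposited for each region, with no stated scale, and the q-value is the estimated false discovery rate deposited with it. Among weak regions the q-value does not always rise as signal falls. In the pooled list it was 0.631 for an Scr region of signal 24.1 and 0.546 for an hb region of 16.0. Large q-values are therefore not used to rank weak regions. The pooled signal ran between 42.5 and 1624.5 in the IDR list (median 73.0), and its median was 20.2 among the pooled regions outside it. Regions mostly had 1 fixed width, so positions are those of summits. No read totals were at hand, so the depth behind a signal is unknown and no error per peak can be given beyond the values of the replicates.

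hb, so, Dll and dac each had 1 IDR summit, in each case within 500 bp of a transcription start site (TSS), which is called a promoter peak below. The 5 Hox genes together had 0 promoter peaks at 15 annotated TSSs and 1 IDR summit, deep in an intron of Antp. So 4 of the 9 genes had a promoter peak, against 12.5% of all 13968 protein-coding genes (1748 genes), a count that the choice of the genes fixes. Over the gene and 5 kb upstream, 5 of the 9 had an IDR summit, against 23.3% of all protein-coding genes (3258 genes). The promoter peaks of hb, so, Dll and dac lie within this window, so their choice fixes 4 of these 5, all except Antp. The shares were higher among long genes. Of the 1367 protein-coding genes whose window (the gene and 5 kb upstream) is at least 20 kb, 22.5% had a promoter peak and 47.8% an IDR summit anywhere in the window, and 8 of the 9 members, all except hb, are of that length. Per length of window, hb, so, Dll and dac had 4 IDR summits in 82.7 kb, or 4.84 per 100 kb, a number that their choice for promoter peaks sets. The Hox genes had 1 in 300.5 kb, or 0.333 per 100 kb, and the whole genome had 2.09 per 100 kb.

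**Figure D1:**
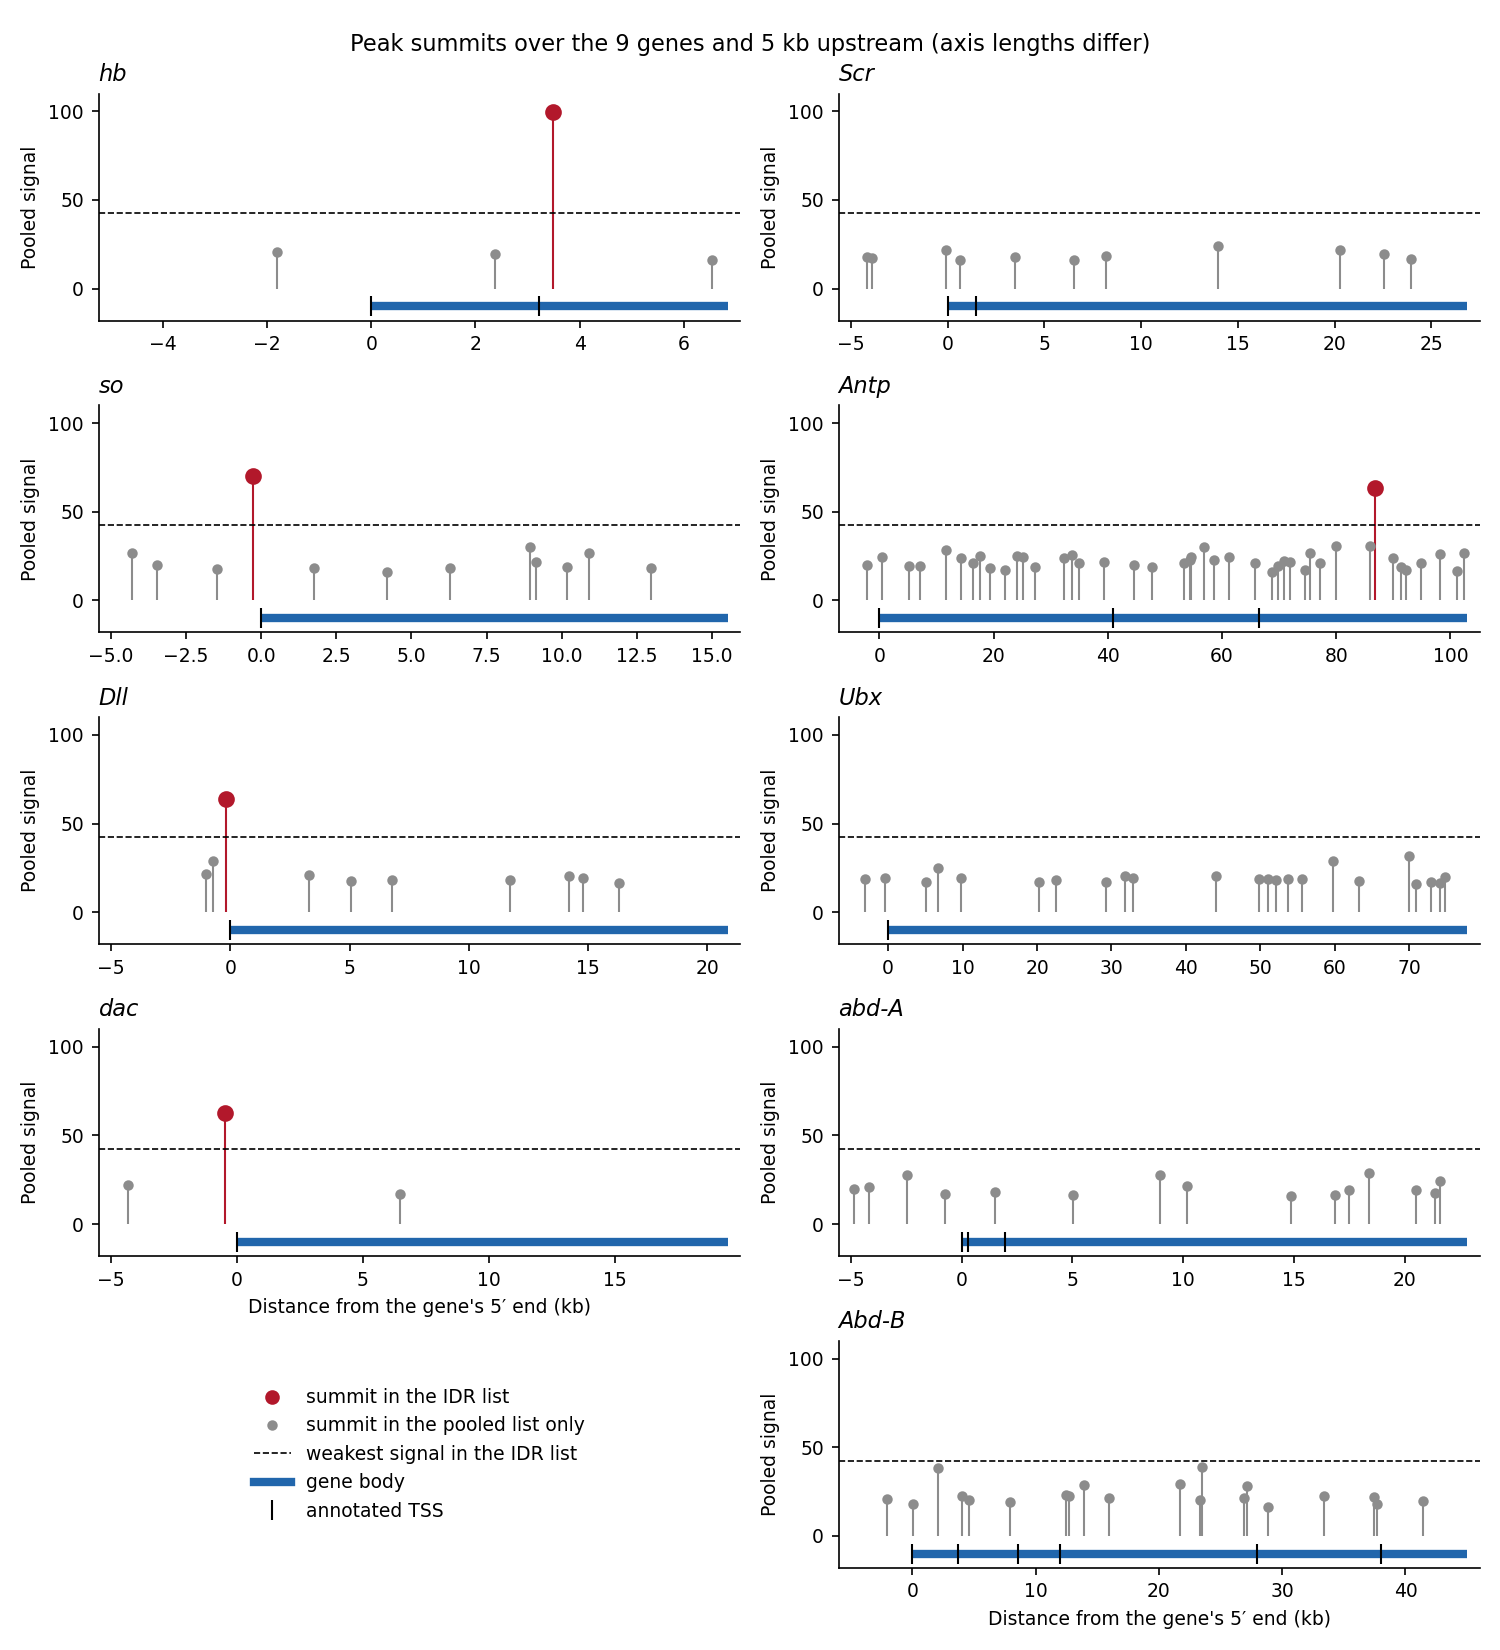
Pooled peak signal (y axis, the authors' scale) of every summit against its distance from the gene's 5′ end in kb (x axis), for hb, so, Dll and dac on the left and the Hox genes on the right. Red points are IDR summits, grey points summits in the pooled list only, black ticks the TSSs, and the dashed line the weakest signal of the IDR list, 42.5. The red points of so, Dll and dac stand at the 5′ end and that of hb at its inner TSS, while the only red point of a Hox gene stands 86738 bp into Antp.

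hb, the gap gene whose zinc finger protein sets up the thorax of the embryo, had the strongest peak of the 9 genes. Its IDR region lies on 3R from 8694118 to 8694547, and hb (FBgn0001180) on 3R from 8690980 to 8697822, on the minus strand. The signal was 99.6 in the pooled list, with 40.1 in replicate 1 and 56.7 in replicate 2. Both replicates held it among their strongest regions, at rank 1459 and rank 903 of 30000, and the pooled q-value was 0.00155. hb has an outer TSS at 8697822 and an inner TSS at 8694600, and the summit at 8694333 lay in an intron 267 bp downstream of the inner one and 3489 bp from the outer one. The inner promoter is the one that Bicoid drives in the early embryo. At the outer TSS no pooled summit lay within 500 bp, although each replicate listed a weak one there at a place of its own (replicate 1 8.92 at 258 bp downstream, replicate 2 12.6 at 13 bp). Among the 1748 genes with a promoter peak hb ranked 844, with 51.7% of them weaker, against a median signal of 97.0 over all of them (quartiles 61.8 and 173). Counted at the outermost TSS of each gene only, hb has no promoter peak.

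so, which encodes the Six-family homeodomain protein of the eye field, had its peak upstream of its single TSS. so (FBgn0003460) lies on 2R from 7419350 to 7434872 on the plus strand, and the IDR region from 7418870 to 7419299 has its summit 265 bp upstream of the TSS, at 7419085. The signal was 70.1 in the pooled list, with 29.0 in replicate 1 and 40.0 in replicate 2. It ranked 2260 in replicate 1 and 1500 in replicate 2, with q-values of 0.0874 and 0.0277 there and 0.0260 in the pooled list. Among genes with a promoter peak it ranked 1169, with 33.1% weaker.

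Dll, the homeobox gene that marks the distal part of legs and antennae, had the summit closest to a TSS. Dll (FBgn0000157) lies on 2R from 24814822 to 24835667 on the plus strand, and the IDR region from 24814433 to 24814862 spans the TSS, with the summit 174 bp upstream at 24814648. The signal was 63.8 in the pooled list, with 27.1 in replicate 1 and 36.8 in replicate 2, and the pooled q-value was 0.0414. Of the promoter peaks of all genes 27.5% were weaker. In a promoter window narrowed to 200 bp, Dll was the only one of the 9 genes with a promoter peak. Among all 1748 genes with a promoter peak, 61.1% had their strongest promoter summit within 200 bp of the TSS.

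dac, which encodes a nuclear cofactor of eye and mid-leg development, had the weakest and least even of the 5 IDR peaks. dac (FBgn0005677) lies on 2L from 16466512 to 16485998 on the minus strand, and the IDR region from 16486255 to 16486684 has its summit 472 bp upstream of the single TSS, at 16486470. The signal was 62.8 in the pooled list, with 44.1 in replicate 1 and 19.8 in replicate 2. That is the opposite order to hb, so and Dll, where replicate 2 was the higher: the ratio of replicate 1 to replicate 2 was 2.23 for dac, and 0.707, 0.725 and 0.736 for hb, so and Dll. The region ranked 1270 in replicate 1 with a q-value of 0.00591, and 4262 in replicate 2 with a q-value of 0.493. In replicate 2 the summit stood 99 bp farther upstream, 571 bp from the TSS and so beyond the 500 bp of a promoter peak. In the 2868 strongest regions of replicate 2 alone dac has no peak, so its place in the lists rests on replicate 1. Only 123 of the 1748 genes with a promoter peak (7.04%) had their strongest promoter summit over 400 bp from the TSS, as dac does.

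Scr, Antp, Ubx, abd-A and Abd-B specify the segments, Scr those of the mouthparts and first thoracic segment, Antp the thorax, Ubx the third thoracic segment, and abd-A and Abd-B the abdomen. All 5 lie on 3R on the minus strand. Antp (FBgn0260642), from 6896253 to 6999228, had the only IDR summit, in the region from 6912275 to 6912704. The signal was 63.4 in the pooled list, with 31.7 in replicate 1 and 30.2 in replicate 2, and the pooled q-value was 0.0416. These are the most even replicates of the 5 IDR peaks (ratio of replicate 1 to replicate 2 of 1.05), and the pooled signal stood between those of dac and Dll. The summit at 6912490 lay in an intron, 20350 bp downstream of the nearest of the 3 TSSs of Antp and 86738 bp from the 5′ end. The same place is an intron of CG46458, a protein-coding gene that overlaps Antp, so the peak cannot be given to Antp alone. No TSS of any gene lay closer than 7808 bp, which only 158 of all 2868 IDR summits (5.51%) exceeded. Distal peaks of this kind were otherwise not rare: 601 IDR summits (21.0%) lay over 2 kb from every TSS, with a median signal of 61.4, and 283 of them were stronger than that of Antp.

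Scr, Ubx, abd-A and Abd-B had 0 IDR summits over the gene and 5 kb upstream. The nearest one stood 62.5 kb from the gene body of Scr (FBgn0003339, 6823120 to 6849981). It stood 38.9 kb from Ubx (FBgn0003944, 16656623 to 16734426), 8.31 kb from abd-A (FBgn0000014, 16807214 to 16830049) and 14.4 kb from Abd-B (FBgn0000015, 16927212 to 16972236). Being without a summit is common at such lengths. Of the protein-coding genes with a window within 25% of the same length, an IDR summit was found in 46.6% of 537 for Scr, 49.7% of 171 for Ubx, 46.4% of 633 for abd-A and 48.7% of 359 for Abd-B, and in 57.5% of 106 for Antp. The same shares were 31.5% of 2285 for hb, 43.6% of 915 for so, 47.1% of 677 for Dll and 47.0% of 721 for dac.

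**Figure D2:**
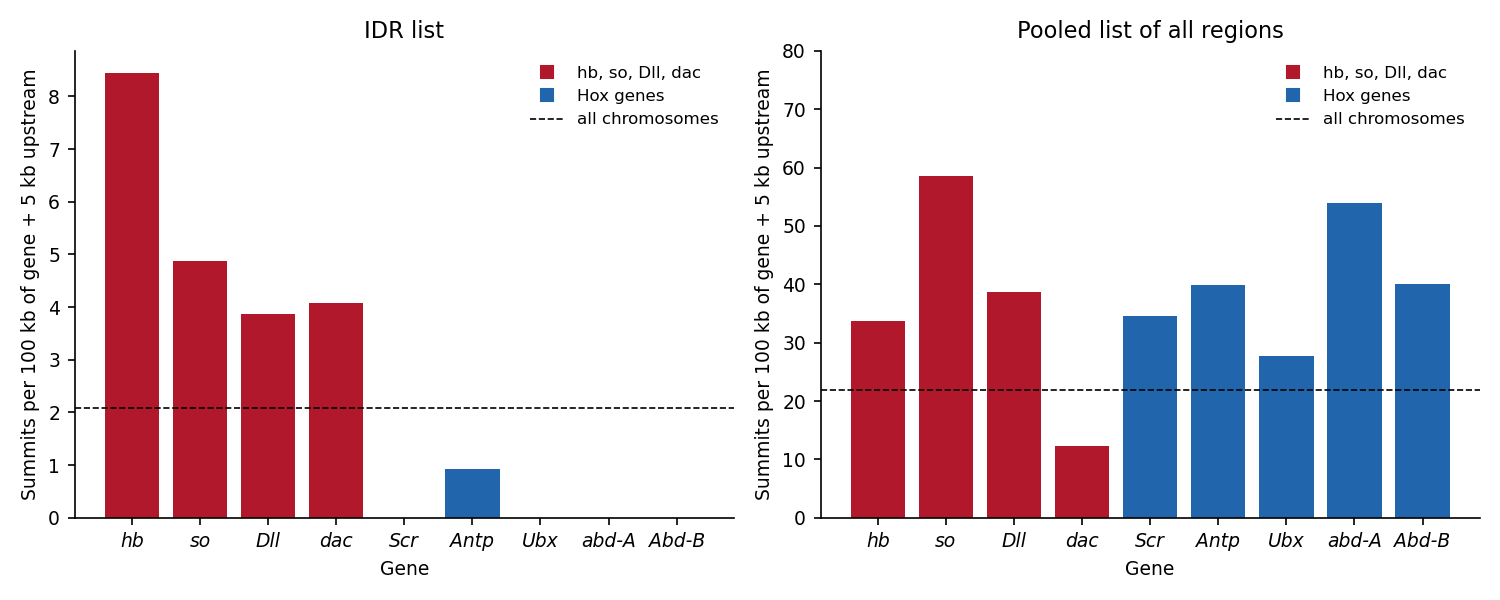
Summits per 100 kb of gene and 5 kb upstream for each gene, in the IDR list (left panel) and in the pooled list of all regions (right panel). Red bars are hb, so, Dll and dac, blue bars the Hox genes, and dashed lines the values over all chromosomes, 2.09 and 21.8. In the IDR list the 4 red bars stand above the line and the blue ones below it or at 0, while in the pooled list both colours stand above the line except dac.

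Below the IDR threshold the Hox genes were not empty. In the pooled list hb, so, Dll and dac had 29 summits (35.1 per 100 kb) and the Hox genes 112 (37.3 per 100 kb), against 21.8 per 100 kb over the genome and 23.8 on 3R. Within hb, so, Dll and dac the density differed widely, at 33.8, 58.5, 38.7 and 12.3 per 100 kb. For Scr, Antp, Ubx, abd-A and Abd-B it was 34.5, 39.8, 27.8, 53.9 and 40.0. Over the 1367 long windows the median was 25.2 (quartiles 16.9 and 33.2). so and abd-A were denser than 99.5% and 98.8% of these windows, and dac was denser than 16.4%. Per length, both sets of genes held similar numbers of pooled regions. They differed in the strong ones, a difference set by the choice of hb, so, Dll and dac for promoter peaks. At a q-value of at most 0.05 the pooled list kept 4 summits over hb, so, Dll and dac and 1 over the Hox genes, which are their IDR summits.

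The weak regions were seldom seen in both replicates. Of the 25 pooled summits over hb, so, Dll and dac outside the IDR list, 4 (16.0%) had a summit within 100 bp in each replicate. Of the 111 over the Hox genes 18 did (16.2%), and of all pooled regions outside the IDR list 16.8% did. With IDR peaks included the shares were 8 of 29 (27.6%), 19 of 112 (17.0%) and 23.6%, and over the IDR list alone 88.0%. All 5 IDR summits of the members had a region in both replicates, and their replicate signals summed to between 0.972 and 1.02 of the pooled signal. Single replicates listed 23 (replicate 1) and 25 (replicate 2) summits over hb, so, Dll and dac, and 98 and 113 over the Hox genes. Antp held the most repeated ones, with 10 of its 43 pooled summits found in both replicates, and Scr only 1 of 11. Ubx had 2 of 23, abd-A 2 of 15 and Abd-B 4 of 20, while hb had 1 of 4, so 4 of 12, Dll 2 of 10 and dac 1 of 3.

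The introns of the Hox genes held most of these regions, 89 of 112, with 11 upstream and 12 in exons. Over hb, so, Dll and dac 17 of 29 were intronic, 10 upstream and 2 in exons. The intronic share of the windows, and that of all pooled regions, was not computed. The 5 kb upstream is also a larger part of a short window, so these splits are not read as a preference for introns. Outside the IDR list the signals ran between 16.0 and 30.1 over hb, so, Dll and dac (median 19.3) and between 16.0 and 38.6 over the Hox genes (median 20.4). The threshold fell in a wide gap for these genes: the weakest member inside was dac at 62.8 and the strongest outside Abd-B at 38.6, while the weakest region of the whole IDR list had 42.5. Abd-B held the 2 strongest regions outside. The stronger, in an intron, had a signal of 38.6 and a q-value of 0.326, with 12.4 in replicate 1. Replicate 2 had none within 100 bp, and a summit of 20.7 stood 109 bp away. The other, at 16970137 and also intronic, had 38.4, with 16.7 in replicate 1 and 19.3 in replicate 2 and a pooled q-value of 0.329.

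The other Hox genes had lower maxima. The strongest region of Ubx, at 16664470 in an intron 69956 bp from the TSS, had 31.9, with 20.1 in replicate 1 and none within 100 bp in replicate 2. Outside its IDR peak, Antp reached 30.7 at 6919347, with 19.0 in replicate 1 and none within 100 bp in replicate 2. A region of Antp at 6913320, near the IDR summit, had 30.6, with 11.9 in replicate 1 and 17.1 in replicate 2. The strongest region of abd-A, at 16811679 in an intron, had 29.1, with 19.5 in replicate 1 and 11.1 in replicate 2. That of Scr, at 6836016 in an intron of Scr and an exon of lncRNA:CR45904, had 24.1, with 10.2 in replicate 1, and in replicate 2 a summit of 10.4 stood 145 bp away. Taking the strongest region outside the IDR list in each Hox gene, the nearest replicate 2 summit stood 97 bp away for abd-A, 109 bp for Abd-B and 145 bp for Scr, in regions that overlapped the pooled one. For Ubx and Antp it stood 1058 and 1234 bp away, and for all 5 genes the replicate 1 summit lay within 100 bp.

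**Figure D3:**
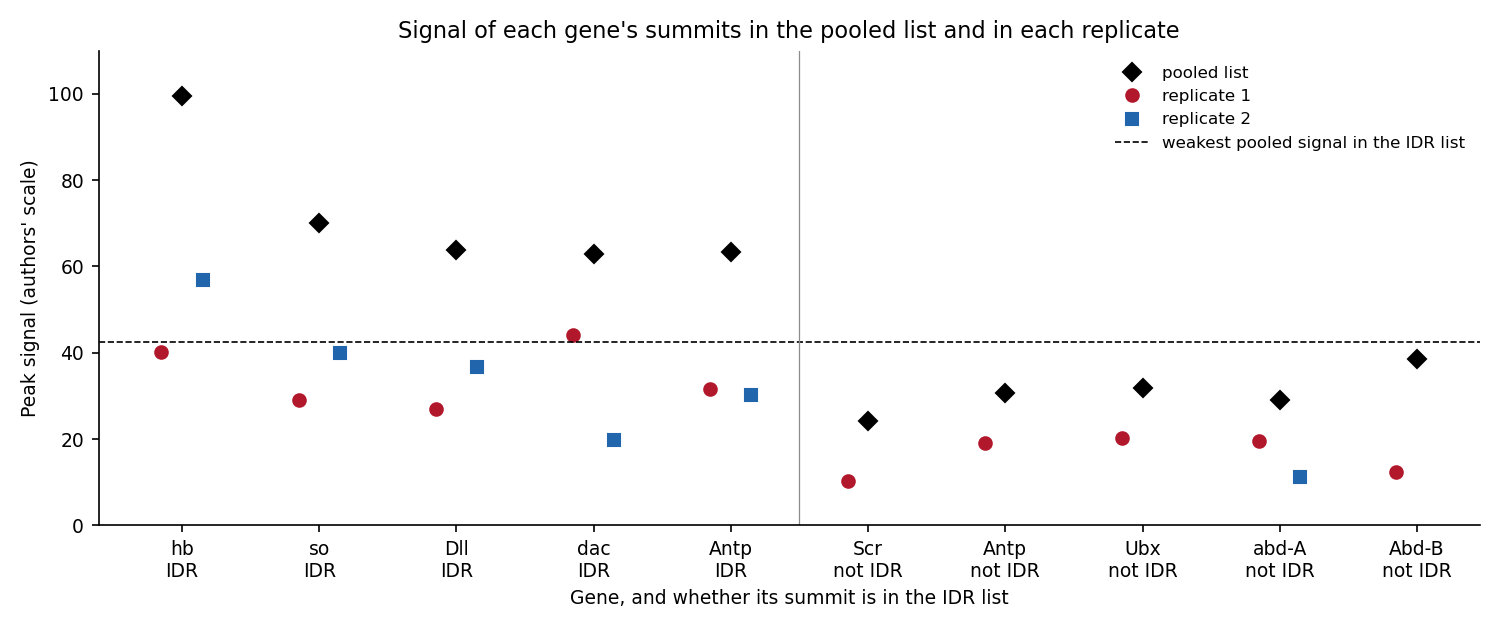
Peak signal on the authors' scale (y axis) of the IDR summit of hb, so, Dll, dac and Antp (left of the line) and of the strongest summit outside the IDR list of each Hox gene (right of the line), in the pooled list (black), replicate 1 (red) and replicate 2 (blue). A replicate with no summit within 100 bp has no point. The 5 IDR summits stand at 62.8 to 99.6 with both replicates present, and the others at 24.1 to 38.6, where abd-A has both at 97 bp and Abd-B and Scr have replicate 2 summits at 109 and 145 bp, which are not drawn.

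At the 15 Hox TSSs weak regions were found at 7 in the pooled list, at 8 in replicate 1 and at 3 in replicate 2, within 500 bp, and at 0 in the IDR list. The share of all annotated TSSs with such a region was not computed. The Hox windows held 37.3 pooled summits per 100 kb, background included, so these counts are not read as binding at the TSSs. The 5 TSSs of hb, so, Dll and dac had a region in the pooled list at 4, in each replicate at 5 and in the IDR list at 4. In replicate 2 the dac TSS was counted through weaker regions 67 and 340 bp downstream (14.0 and 10.8). The replicate 2 summit matched to the dac IDR peak lay 571 bp upstream and was not counted. The outer TSS of hb was counted only through weak regions (8.92 in replicate 1, 12.6 in replicate 2). Scr was the 1 Hox gene whose TSS had a region in the pooled list and in both replicates with summits in nearly the same place. Its summit 109 bp upstream of the TSS at 6849981 had a pooled signal of 21.6, with 10.7 in replicate 1 and 11.6 in replicate 2. The innermost TSS of Abd-B, at 16934242, had 17.9 in the pooled list. Other pooled signals at Hox TSSs were 24.3 at the outermost TSS of Antp, 19.2 at that of Ubx, 17.9 at the innermost of abd-A, and 18.2 and 22.4 at the 2 outermost of Abd-B. All of these lie near the median of 20.2 for pooled regions outside the IDR list.

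By the number of IDR and promoter summits, a window length within 25% and the nearest summed signal, the pattern of hb was most like those of melt (98.9) and Vha68-2 (100.5) among 246 candidates. For so they were Pdk1 (72.0) and Asator (67.4) of 86, for Dll Cht7 (65.4) and lobo (62.0) of 58, and for dac lobo and Fs (61.1) of 61. For Antp, with 1 summit and no promoter peak in a window of 108.0 kb, there were 14 candidates. The nearest were CG46467 and Glut4EF, both on 3R with the identical signal of 61.0. Each window holds 1 IDR summit, and the signals are the same to every digit given (61.02985677). The 2 genes therefore most likely share 1 summit and are 1 case, although the positions were not compared. Likeness here is in the pooled signal of 1 list and was not measured over samples.

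The genes that act with or around the members were read in the same way. The 9 genes themselves, of which 4 were chosen for promoter peaks, were left out of these lists, and that lowers the counts. From the Hox complexes 7 further genes were listed (lab, pb, Dfd, zen, zen2, bcd and ftz), and CG46458, which overlaps the IDR summit of Antp, was not. The 7 had 0 promoter peaks and 0 IDR summits, which by the limit of 3 counts allows a share of up to 42.9%. Of 5 Hox cofactors 0 had a promoter peak (up to 60%) and 1, hth, the partner that brings Exd into the nucleus, had an IDR summit. Of 20 segmentation genes 0 had a promoter peak (1 of 21 with hb), and 2 had an IDR summit, cad and h. Of 17 appendage patterning genes 0 had a promoter peak (2 of 19 with Dll and dac), and 3 had an IDR summit: bab1, ab and dpp, the BMP ligand of the fly. Of 9 eye determination genes, ey, the Pax6 gene that acts upstream of so, had a promoter peak of 57.9 at 7 bp upstream of a TSS, on chromosome 4 from 697467 to 697896, listed in replicate 2 (40.0) and not within 100 bp in replicate 1. Together these 57 patterning genes, with nub of the segmentation and the appendage list counted as 1, had 1 promoter peak (1.75%), and 7 had an IDR summit (12.3%). With the 9 genes counted in, 5 of 66 had a promoter peak (7.58%), against 12.5% of all protein-coding genes, and 12 an IDR summit (18.2%), against 23.3%. These comparisons are not matched for window length, of which the median over the 57 genes was 13.4 kb.

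Some promoter peaks of the Polycomb and trithorax group genes, which regulate the Hox genes, were stronger than that of any of the 9 genes. Such peaks were common: hb, the strongest of the 9, ranked 844 among the 1748 genes with a promoter peak. Of 18 Polycomb group genes 2 had a promoter peak (11.1%, 95% Wilson interval 3.10 to 32.8) and 6 an IDR summit (33.3%, 16.3 to 56.3). ph-p, a subunit of Polycomb repressive complex 1, had a signal of 420 with a summit 430 bp downstream of a TSS, with 208 in replicate 1 and 221 in replicate 2. ph-p has a near-identical neighbour in ph-d, and reads could be split between them. pho, whose protein binds Polycomb response elements, had 67.7 at 246 bp upstream, with 24.7 in replicate 1 and 35.4 in replicate 2. Of 15 trithorax group genes 4 had a promoter peak (26.7%, 10.9 to 52.0) and 7 an IDR summit (46.7%, 24.8 to 69.9). They were led by brm, the ATPase of the Brahma remodeller, with 371 (replicate 1 186, replicate 2 185), and Trl, the gene of GAGA factor, with 214 (replicate 1 85.0, replicate 2 122). mor, a Brahma subunit, had 137 (replicate 1 50.4, replicate 2 89.0), and osa, another, had 56.8 (replicate 1 32.0, replicate 2 22.2). Of the 33 Polycomb and trithorax group genes together, 6 had a promoter peak (18.2%, 8.61 to 34.4), against 12.5% of all protein-coding genes. An IDR summit was found for 13 of the 33 (39.4%, 24.7 to 56.3), against 23.3% of all protein-coding genes. The median window of the 33 genes was 13.0 kb. Of the 2285 protein-coding genes with a window within 25% of the 11.8 kb of hb, 31.5% had an IDR summit. No share matched in length was computed for the 33, so 39.4% against 23.3% is not read as an enrichment. These intervals cover the counting of genes only.

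**Figure D4:**
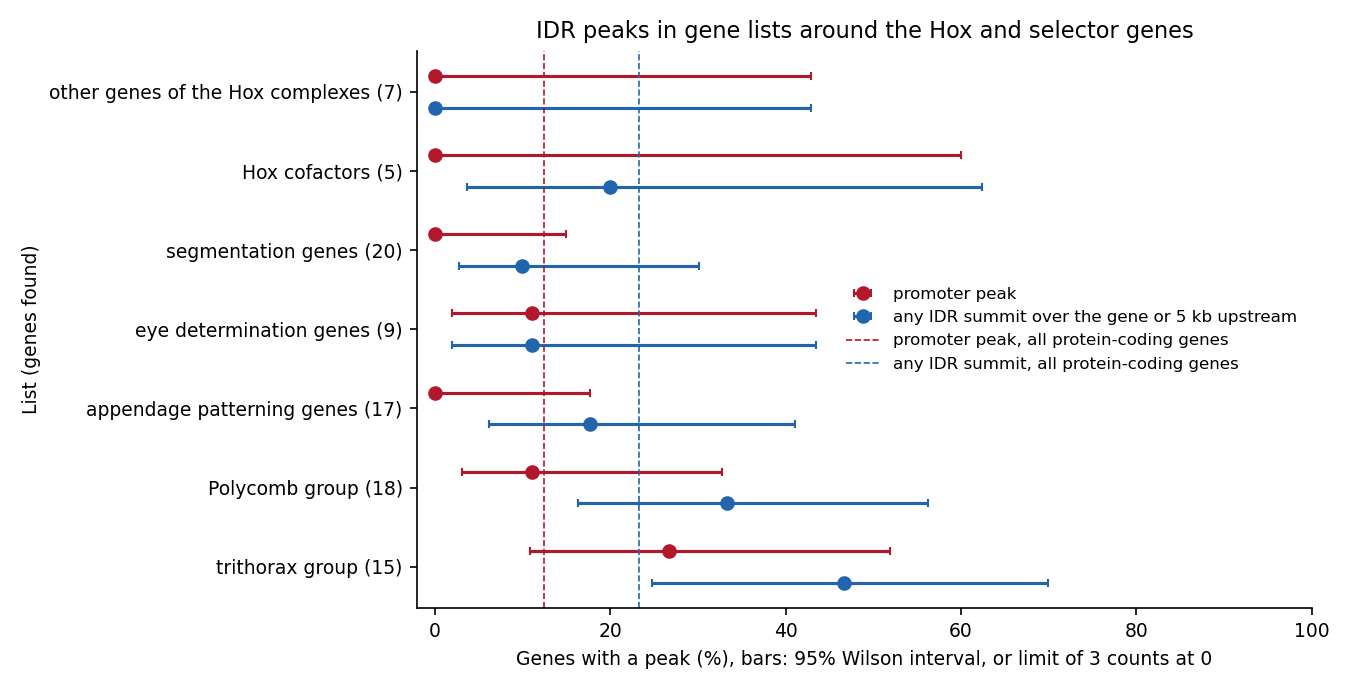
Share of the genes of each list (rows, number of genes in brackets) with a promoter peak (red) or any IDR summit over the gene or 5 kb upstream (blue), in percent, with 95% Wilson intervals as bars (at 0, the limit of 3 counts), the 9 genes left out, and the shares of all protein-coding genes, 12.5% and 23.3%, as dashed lines. The Hox complexes, Hox cofactors, segmentation and appendage lists stand at 0 for promoter peaks, and the trithorax group stands highest at 26.7% and 46.7%.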

How the data were processed

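Whole adult males were measured by ChIP-seq in 2 biological replicates of 1 group, and nothing in the labels says whether these came from separate cultures. The authors deposited narrowPeak lists on dm6, made from alignments of replicate and control libraries per the deposited descriptions. The authors deposited a peak signal for every region, and its significance as −log10 of the q-value. Signals of separate lists were set side by side for summits within 100 bp, or with the distance given. The peak caller and aligner were not given in the sources used here. Without read totals, depth is unknown. The dm3 lists were not used.

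Summits were placed, 1-based, on the Ensembl release 115 annotation of Release 6. A window is the gene and 5 kb upstream, and a promoter peak has its summit at most 500 bp from any TSS of the gene. Summits within 100 bp were matched between lists, and motif words were searched within 100 bp of a summit. Intervals of shares are at 95%, by Wilson's method. A share of 0 is given with the upper limit of 3 counts. The code was tested on simulated data. Values were computed in Python 3.11.15 (pandas 2.3.3, numpy 2.4.6, scipy 1.17.1) and drawn with matplotlib 3.10.9.

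The members and the gene lists were chosen with earlier results of these data known, so no test was run. Named beside the members were up to 4 genes of each list with the strongest promoter peak, genes overlapping a member's IDR summit or with a TSS within 500 bp of it, the 2 genes most alike to each member with an IDR summit, and the regions next to the IDR threshold. Genes with an IDR summit elsewhere in the window, in lists with 3 or fewer such genes, were named after their values were seen. The h gene was matched by a synonym, and 1 of 19 Polycomb group symbols, calypso, was not matched. The sequences of some summits are not reported here. Alternatives were the 1434 strongest IDR peaks, a q-value of at most 0.05, each replicate alone, promoter windows of 200 and 1000 bp, 1 TSS per gene, the gene body alone, 10 kb upstream, any overlap of a region, and matching within 300 bp or by an overlap of 50%.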

Additional observations from a re-analysis of the deposited data

How the results depend on the processing

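Over 65 alternatives for 11 results, 47 left the value within 1.5 times and 18 moved it further. Among the 1434 strongest IDR peaks only hb kept a peak: the members with a promoter peak and with any IDR summit were 1 each, hb, so, Dll and dac had 1 summit (1.21 per 100 kb), the Hox genes had 0 (0 per 100 kb), and the shares of all protein-coding genes were 8.03% for promoter peaks and 15.1% for any summit. A promoter window of 200 bp left 1 member (Dll) and 8.21% of all genes. Counting gene bodies only gave 2 members with an IDR summit, 1 summit over hb, so, Dll and dac (1.59 per 100 kb), 19 pooled summits over them, and 8.20% of all genes. Extending to 10 kb upstream gave 7 IDR summits over hb, so, Dll and dac. At a q-value of at most 0.05 the pooled list held 4 summits over hb, so, Dll and dac and 1 over the Hox genes, and the 1789 IDR peaks at that level held the same 5 members.

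With the 2868 strongest regions of 1 replicate in place of the IDR list, the members with a promoter peak were 3 to 4 and those with any summit 4 to 5, dac being lost without replicate 1. Summits over hb, so, Dll and dac were then 3 to 4 (3.63 to 4.84 per 100 kb) and over the Hox genes 1 in each case (0.333 per 100 kb). Pooled summits gave way to 23 to 25 over hb, so, Dll and dac and 98 to 113 over the Hox genes, and the shares of all genes were 13.2% to 14.2% and 24.4% to 25.7%. No paired analysis was possible because the series has 1 group. Depth cannot be judged from these files, so a region outside the IDR list is not shown to be unbound, and with 2 replicates no error can be set on a signal.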

Other observations

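Over the whole Hox complexes IDR summits were as sparse as over the genes. The Antennapedia complex between lab and Antp, 337.8 kb long, held 1 IDR summit (0.296 per 100 kb), the intronic one of Antp, and 142 pooled summits (42.0 per 100 kb). The bithorax complex between Ubx and Abd-B, 315.6 kb long, held 1 IDR summit (0.317 per 100 kb) and 117 pooled summits (37.1 per 100 kb), against 2.09 and 21.8 per 100 kb over the genome. The bithorax summit lay between genes at 16798908 on 3R, 8.31 kb past the 3′ end of abd-A, with a signal of 48.8 (replicate 1 17.8, replicate 2 32.3) and a q-value of 0.142. Stronger peaks stood outside the bithorax complex. A peak of 420.7 (replicate 1 184, replicate 2 235) stood 14.4 kb from Abd-B, with its summit 186 bp from the TSS of CG18622, and a further one of 74.8 stood at 16992086. On the other side of the Antennapedia complex a weak IDR peak of 44.9 lay 3.62 kb beyond lab, at twr. It had 39.2 in replicate 2 and no matched summit in replicate 1.

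Past the 5 kb window, between 5 and 10 kb upstream, 3 more IDR summits were found, all of them upstream of dac. Their signals were 137, 144 and 108 at 5.41, 6.75 and 9.38 kb, and the nearest TSS of each belonged to Tpr2, the gene next to dac. Each was stronger than the promoter peak of dac, at 62.8. These summits were read after the values were known.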
